A study of Mus musculus with 10 samples.

Results

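The genes described here encode the constitutive subunits of the mouse proteasome and their dedicated chaperones. They were taken by name, as the protein-coding genes of the GRCm38 GENCODE annotation whose symbol begins with Psma, Psmb, Psmc or Psmd and a digit. The immunoproteasome genes Psmb8, Psmb9 and Psmb10, the interacting proteins and the pseudogenes were left out. Of the 55421 genes in the count table, 36 met this rule, and all 36 were found by their Ensembl identifier. The rule used names only.

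RNA was sequenced from myeloid cells of young adult mice carrying fibrosarcomas grown from MC17-51, a mouse tumor cell line, at day 15 after implantation. Myeloid-derived suppressor cells (MDSC) were isolated from the spleen as GR-1+ cells, and tumor-associated macrophages (TAM) were sorted from the tumor as CD11b+F4/80+ cells. Shp2f/f mice carried floxed alleles of Ptpn11, the gene of the phosphatase SHP-2, without Cre, and served as controls. Shp2f/fLysMcre mice carried the same floxed alleles and Cre recombinase expressed from the lysozyme M locus, which is active in macrophages and neutrophils and not in 1 cell type alone. There were 2 MDSC samples and 3 TAM samples of each genotype, 10 in all. The sources used here do not say whether a sample was 1 mouse or a pool, or, since MDSC and TAM were taken from the same mice, which MDSC and TAM samples share a mouse, so p-values measure the spread between these samples.

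The 26S proteasome degrades proteins that carry ubiquitin. Its 20S core is a barrel of alpha and beta rings, and only some of the beta subunits cut peptide bonds: Psmb5 encodes the chymotrypsin-like, Psmb6 the caspase-like and Psmb7 the trypsin-like subunit. The 19S regulatory particle sits on the barrel. Its base holds the ATPases (Psmc1 to Psmc6) that unfold the substrate, and its lid holds Psmd14, which removes the ubiquitin chain. In cells exposed to interferon the immunoproteasome subunits Psmb9, Psmb10 and Psmb8 take the places of Psmb6, Psmb7 and Psmb5, which changes the peptides available to MHC class I. The transcription factor NRF1, encoded by Nfe2l1, raises proteasome gene transcription through antioxidant response elements when proteasome activity falls short.

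Libraries held between 28844660 and 38222998 reads assigned to genes. Ptpn11, the targeted gene, was measured at 119, 122 and 119 CPM, the reads of a gene scaled to a common library size, in Shp2f/f TAM and at 48.8, 51.6 and 51.9 in Shp2f/fLysMcre TAM, which is -1.24 as a log2 fold change (edgeR quasi-likelihood adjusted p = 2.96e-09, SE 0.0386). In MDSC it was measured at 119 and 104 CPM in Shp2f/f and at 99.9 and 82.7 in Shp2f/fLysMcre, which did not pass the test (log2 -0.29, SE 0.143, edgeR quasi-likelihood adjusted p = 0.361). Summed neutrophil markers ranged from 10883 to 34226 CPM of the total count in MDSC and from 2305 to 4604 in TAM, and summed macrophage markers from 2901 to 3720 in MDSC and from 14389 to 22837 in TAM. In TAM most of the neutrophil sum was 1 gene, Mmp9, at 1944 to 4257 CPM. Of the 12 neutrophil markers, Mmp9 was called higher in TAM than in MDSC and 11 were called lower, in each genotype. The largest part of the macrophage sum in MDSC was Csf1r, at 1029 to 1442 CPM, compared to 1425 to 1695 CPM in TAM. Of the 12 macrophage markers, 11 were called higher in TAM in Shp2f/f and 12 in Shp2f/fLysMcre, and 0 were called lower. The gate genes were Ly6g at 8.91 to 33.2 CPM in MDSC and at most 0.287 in TAM, and Adgre1 (F4/80) at 209 to 383 CPM in MDSC and 636 to 996 in TAM. Other cell types were also represented: B and plasma cell markers summed to 2656 to 4016 CPM in MDSC and 32.9 to 70.0 in TAM, and erythroid markers to 468 to 1191 in MDSC and 25.0 to 48.7 in TAM, where Car1 had no read in any library. T and NK cell markers summed to between 7.36 and 48.2 CPM in all libraries, and fibroblast and tumor markers to 1440 to 1674 CPM in MDSC and 1049 to 1191 CPM in TAM. Most of the fibroblast and tumor sum was 1 gene, Fn1, at 868 to 1609 CPM in MDSC and 867 to 966 CPM in TAM. Of the 10 genes in that list, 6 were called higher and 1 lower in TAM than in MDSC in Shp2f/f. In Shp2f/fLysMcre 0 were called higher and 1 lower. The 2 MDSC libraries of that genotype differed, with Col1a1 at 4.74 CPM in replicate 1 and 173 CPM in replicate 2. Pancreatic islet markers, which neither cell type should express, summed to between 887 and 6944 CPM in Shp2f/f TAM, to between 6.19 and 78.1 in Shp2f/fLysMcre TAM and to at most 9.55 in MDSC.

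The 36 genes comprised 8 alpha ring genes, 8 beta ring genes, 6 base ATPases, 3 further base subunits (Psmd1, Psmd2 and Psmd4), 8 lid subunits and the 3 chaperones of base assembly (Psmd5, Psmd9 and Psmd10). A filter on low counts left 35 of them in each comparison. Psmb11, the thymus-specific catalytic subunit, had at most 1 read in any library and was not tested. Psma8, the testis-specific alpha subunit, was close to the filter with 23 to 77 reads per library. Together the 36 genes took 0.423% and 0.471% of the reads in Shp2f/f MDSC and 0.405% and 0.473% in Shp2f/fLysMcre MDSC. In TAM they took 0.449%, 0.453% and 0.449% in Shp2f/f and 0.409%, 0.386% and 0.378% in Shp2f/fLysMcre.

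Levels of different genes were compared as RPKM, the CPM value divided by the kilobases of annotated exon. Although the subunits assemble in fixed proportions, their transcripts did not have equal levels. Across the 34 genes other than Psma8 and Psmb11, the lowest and the highest group mean differed 27.9-fold in Shp2f/f MDSC and 31.7-fold in Shp2f/f TAM. The median gene stood at 48.2 RPKM in Shp2f/f MDSC, 46.0 in Shp2f/fLysMcre MDSC, 45.2 in Shp2f/f TAM and 40.9 in Shp2f/fLysMcre TAM. Psmd9 was lowest in each group, with means between 3.99 and 4.91 RPKM. Its exon annotation sums to 7248 bases over a locus that also holds Hpd on the opposite strand, and its value per kilobase depends on that length. Psmb4, a beta ring subunit without a catalytic site, was highest in MDSC at 110.2 and 130.1 RPKM in the Shp2f/f samples. Annotated processed pseudogenes of Psmb5, Psmb6 and Psmb7 had at most 6 reads in any library. Psma6, an alpha ring subunit, was highest in TAM at 144, 149 and 140 RPKM in Shp2f/f.

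By their place in the particle, the lid and chaperone genes had lower levels than the rings and the ATPases, given here as a description. The median level in Shp2f/f MDSC and Shp2f/f TAM was 54.2 and 48.9 RPKM for the alpha ring, 58.1 and 73.6 for the beta ring and 58.7 and 59.2 for the base ATPases. It was lower for the lid, at 34.3 and 38.4 RPKM, and lowest for the base chaperones, at 5.79 and 4.85 RPKM. The chaperones leave the particle before it is complete. Ranges overlapped between the groups of subunits: single lid genes ran from 11.4 to 79.3 RPKM in Shp2f/f MDSC, and the chaperone Psmd10 reached 30.6 RPKM in Shp2f/f TAM. These are group means over 2 or 3 samples, and the order rests on the annotated exon lengths.

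**Figure D1:**
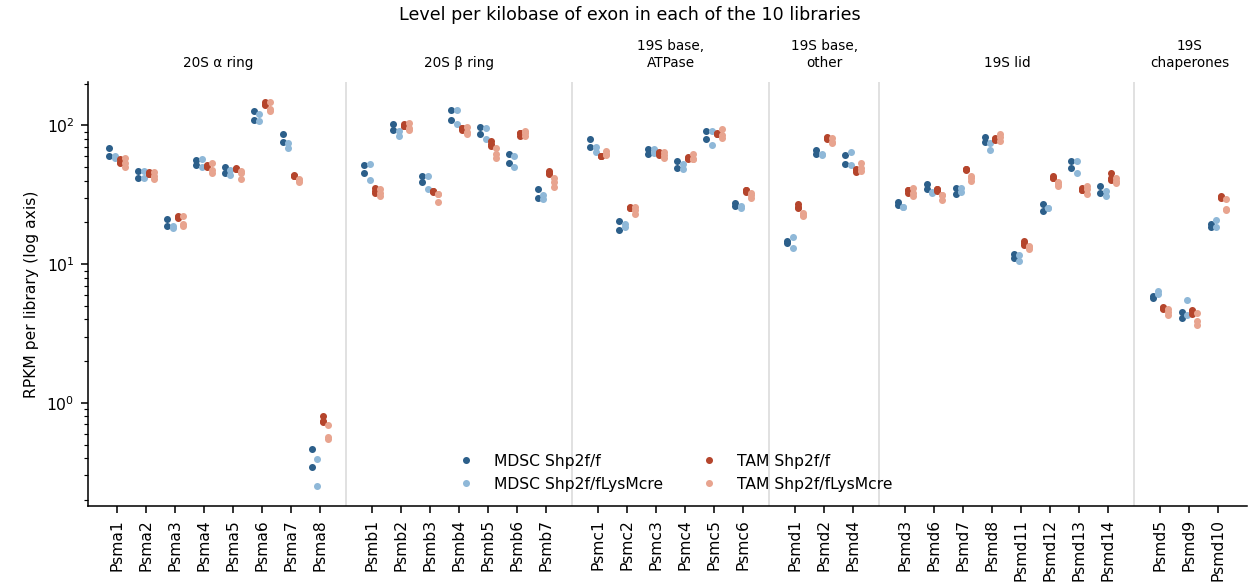
Level of 35 constitutive proteasome genes in RPKM on a log axis, with 1 point per library, colored by group and ordered by the section of the particle (Psmb11 is not drawn). Psma8 lies below 1 RPKM, and Psmd5 and Psmd9 are the lowest of the other genes.

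The comparison of genotypes within TAM asks which of these genes differ when SHP-2 is deleted in the macrophage lineage. Of 35 genes tested, 16 were lower in Shp2f/fLysMcre TAM and 0 were higher, at an adjusted p under 0.05 (edgeR quasi-likelihood test, Benjamini-Hochberg over all genes tested). That is 45.7% of the tested members, where 26.3% of all 14446 genes tested were lower and 23.9% were higher. At an unadjusted p under 0.05, 19 members were lower and 0 higher by the same test. At that threshold 8047 of all 14446 genes passed, counted in either direction. DESeq2 called 13 members lower, where 22.2% of all genes were lower. Only 3 members had a positive estimate. The differences were small: the median log2 fold change of the members was -0.13 compared to -0.01 over all genes tested, and the largest fall that passed the test was 16.4% in Psmb5. The median size of the difference was 0.13 for members and 0.24 for all genes. In bulk samples, fewer cells of a type and less RNA per cell cannot be told apart.

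**Figure D2:**
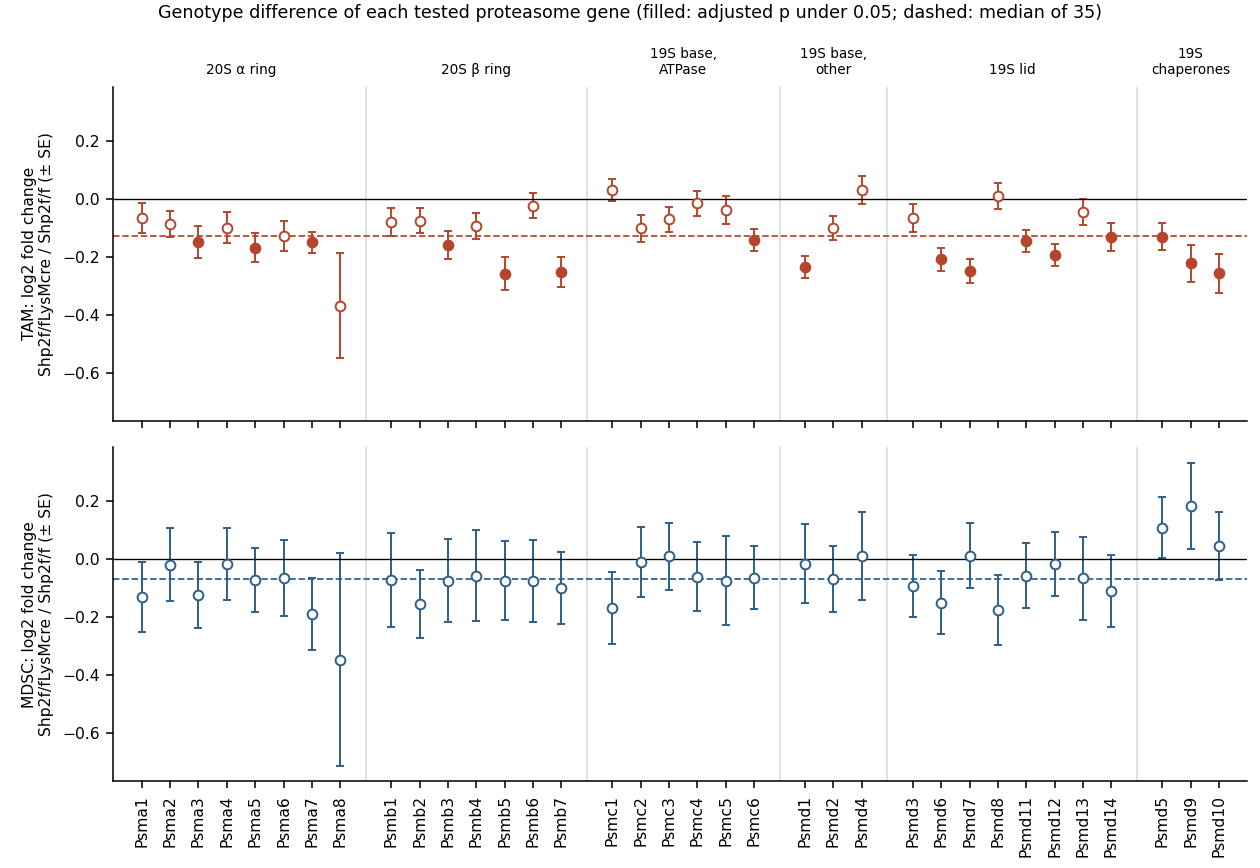
Log2 fold change of Shp2f/fLysMcre over Shp2f/f with its SE for each of 35 tested genes, in TAM (upper panel, 3 samples a genotype) and MDSC (lower panel, 2 a genotype). Filled symbols passed an adjusted p of 0.05, and the dashed line is the median, -0.13 in TAM and -0.07 in MDSC.

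Of the 3 catalytic genes, Psmb5 and Psmb7 were lower in Shp2f/fLysMcre TAM and Psmb6 was not. Psmb5, on chromosome 14 (GRCm38 54614119 to 54618022, minus strand), stood at 64.8, 67.2 and 62.9 CPM in the Shp2f/f samples and at 59.1, 53.3 and 50.6 CPM in the Shp2f/fLysMcre samples. Every Shp2f/fLysMcre sample lay below every Shp2f/f sample, and the difference on the log2 scale was -0.26 (SE 0.0565, edgeR quasi-likelihood adjusted p = 0.00279). Psmb7, on chromosome 2 (38588036 to 38644087, minus strand), stood at 150.0, 155.9 and 152.8 CPM compared to 138.2, 128.5 and 118.2 CPM. These groups did not overlap either, with a log2 value of -0.25 (SE 0.0528, edgeR quasi-likelihood adjusted p = 0.00207). Psmb7 shares 6571 bases of its locus with Nek6 on the opposite strand, and the sources used here do not state whether reads were counted by strand. Nek6 had up to 2819 reads in a library, where Psmb7 had at least 3334, and the part of shared reads in its values was not tested. Psmb6, on chromosome 11 (70525367 to 70527858, plus strand), stood at 162.6, 154.2 and 162.8 CPM in Shp2f/f and at 164.7, 156.3 and 150.8 CPM in Shp2f/fLysMcre. The Psmb6 groups overlapped, and its log2 fold change of -0.02 did not pass the test (SE 0.0438, edgeR quasi-likelihood adjusted p = 0.689).

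The other largest falls that passed the test were in the regulatory particle. Psmd7, a lid subunit that pairs with the deubiquitinase Psmd14, lies on chromosome 8 (107580381 to 107588464, minus strand) and was measured at 105.7, 107.3 and 108.7 CPM in Shp2f/f TAM. In Shp2f/fLysMcre TAM it was measured at 94.1, 90.3 and 86.1 CPM, below every control sample (log2 -0.25, SE 0.0407, edgeR quasi-likelihood adjusted p = 0.00039). Psmd10, the base chaperone also called gankyrin, lies on chromosome X (140948429 to 140956728, minus strand). It was measured at 44.3, 43.1 and 45.1 CPM in Shp2f/f and at 41.4, 34.2 and 35.2 CPM in Shp2f/fLysMcre, again without overlap (log2 -0.26, SE 0.0662, edgeR quasi-likelihood adjusted p = 0.0073). Replicate 1 of the Shp2f/fLysMcre TAM was the sample closest to the controls for Psmb5, Psmb7, Psmd7 and Psmd10.

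Counted by their place in the particle, the genes that fell in TAM were spread over every section. In the alpha ring 3 of 8 tested genes fell (Psma5, Psma7 and Psma3, log2 between -0.17 and -0.15), and in the beta ring 3 of 7 (Psmb5, Psmb7 and Psmb3, the last by 0.16 on the log2 scale). Among the base ATPases only Psmc6 fell of 6 tested (log2 -0.14), while Psmc1 and Psmc4 had log2 fold changes of 0.03 and -0.02. Of the other base subunits, the scaffold Psmd1 fell of 3 tested (log2 -0.24), and the ubiquitin receptor Psmd4 had a log2 fold change of 0.03. In the lid 5 of 8 genes fell, with log2 values of -0.25 for Psmd7, -0.21 for Psmd6, -0.19 for Psmd12, -0.14 for Psmd11 and -0.13 for Psmd14. All 3 base chaperones fell, Psmd10 by 0.26, Psmd9 by 0.22 and Psmd5 by 0.13 on the log2 scale. The testis-specific Psma8 had the most negative estimate, -0.37, and did not pass the test. In 17 of 35 genes the samples of the genotypes did not overlap, all 17 with the lower values in Shp2f/fLysMcre. Of all genes tested, 58.2% did not overlap and 30.6% were lower without overlap.

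The fall was carried by replicates 2 and 3 of the Shp2f/fLysMcre TAM more than by replicate 1. For the 34 genes other than Psma8 and Psmb11, the median position relative to each gene's mean over the 6 TAM libraries was 0.05, 0.07 and 0.06 on the log2 scale in the 3 Shp2f/f libraries. It was 0.04 in Shp2f/fLysMcre replicate 1 and -0.07 and -0.12 in replicates 2 and 3. Of 35 genes, 34 were lower in replicate 2 than in replicate 1, and 34 were lower in replicate 3 than in replicate 1, where 53.7% and 56.3% of all genes were lower. Without Shp2f/fLysMcre replicate 1, 28 members were lower and 0 higher, where 25.7% of all genes were lower. Leaving out any other TAM library gave between 11 and 15 lower and 0 higher, where 21.9% to 24.5% of all genes were lower. In each of these fits Psma7, Psmb5, Psmb7, Psmc6, Psmd1, Psmd6, Psmd7, Psmd10 and Psmd12 passed the test, 9 of the 16.

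**Figure D3:**
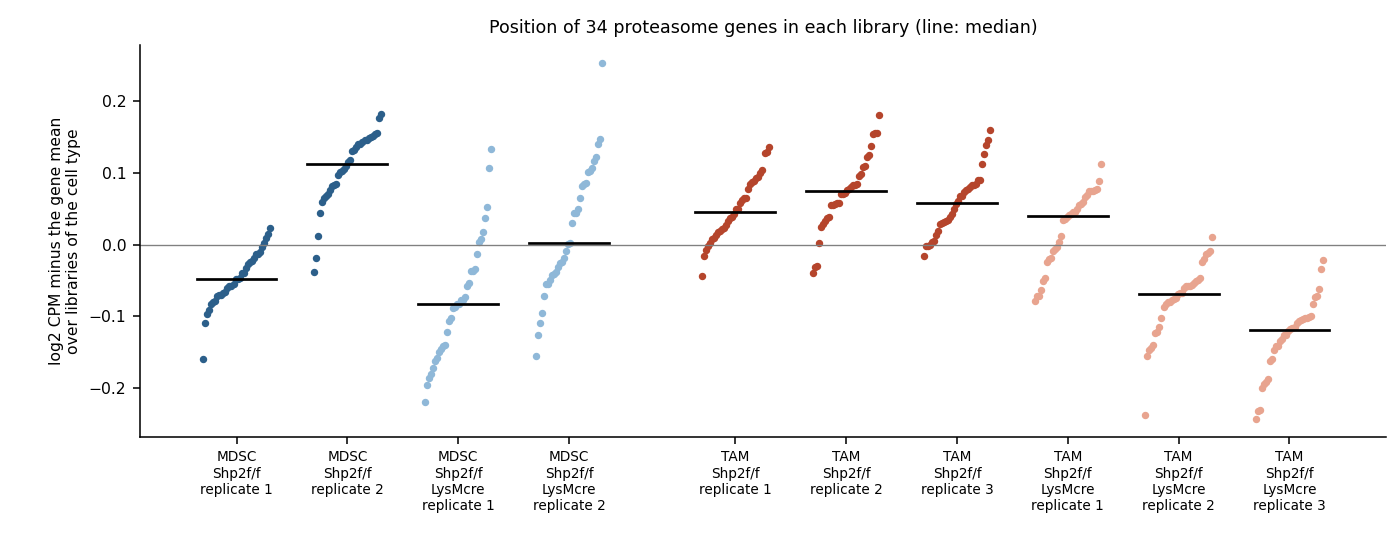
Position of 34 constitutive proteasome genes in each of the 10 libraries, as log2 CPM minus the gene's mean over the libraries of the same cell type, with 1 point per gene and a line at the median. The median of Shp2f/fLysMcre TAM replicate 1 is 0.04, and those of replicates 2 and 3 are -0.07 and -0.12.

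The count of falls depended on the scaling. With scaling by the total count, 31 members were lower and 0 higher, where 36.2% of all genes were lower and 16.2% higher and the median of all genes moved to -0.11. The members' median was then -0.23, so that the distance between members and all genes stayed at -0.12 under both scalings. With all 10 samples in 1 fit, in which the MDSC libraries also enter the scaling and the estimate of spread, only Psmd6 and Psmd7 passed. In that fit 13.4% of all genes were lower and 15.7% higher, so the members' share of falls was not above that of all genes. Proliferation genes moved with the genotype in TAM: all 18 tested were lower in Shp2f/fLysMcre, with a summed level of 1914 to 1931 CPM of the total count in Shp2f/f and 1066 to 1129 in Shp2f/fLysMcre. All 12 macrophage markers were higher, with a summed level of 14389 to 14882 CPM in Shp2f/f and 21269 to 22837 in Shp2f/fLysMcre, and all 8 islet markers and 9 of 10 T and NK cell markers were lower. Their part in the result was not tested.

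Promoter windows were searched for the element bound by NRF1 and for other common motifs. RefSeq (GRCm38.p6) gave the 250 bases before the start of 29 of the 36 genes. The antioxidant response element core, TGACNNNGC on either strand, was present in 5 of the 29 (17.2%) and in 11.5% of all 27025 genes in the table. Of the 5, Psmb5, Psmc6, Psmd9 and Psmd12 were among the 14 matched genes that fell in TAM, and Psmb6 was among the 15 others. The windows of Psmb5, which was called in TAM, of Psmb6, which was not, of the chaperone Psmd9 are given 5′ to 3′ along the gene, with the element in capitals:
Psmb5 (chr14:54617996-54618245, minus strand): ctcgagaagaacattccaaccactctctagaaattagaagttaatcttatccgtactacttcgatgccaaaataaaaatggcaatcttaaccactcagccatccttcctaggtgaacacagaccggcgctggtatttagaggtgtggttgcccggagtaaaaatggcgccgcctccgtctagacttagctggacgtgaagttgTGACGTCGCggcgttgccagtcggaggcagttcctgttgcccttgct
Psmb6 (chr11:70525107-70525356, plus strand): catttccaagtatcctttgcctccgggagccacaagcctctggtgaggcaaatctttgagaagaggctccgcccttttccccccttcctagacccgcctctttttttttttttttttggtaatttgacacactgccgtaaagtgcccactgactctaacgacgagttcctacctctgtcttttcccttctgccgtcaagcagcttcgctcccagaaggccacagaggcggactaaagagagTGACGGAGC
Psmd9 (chr5:123227940-123228189, plus strand): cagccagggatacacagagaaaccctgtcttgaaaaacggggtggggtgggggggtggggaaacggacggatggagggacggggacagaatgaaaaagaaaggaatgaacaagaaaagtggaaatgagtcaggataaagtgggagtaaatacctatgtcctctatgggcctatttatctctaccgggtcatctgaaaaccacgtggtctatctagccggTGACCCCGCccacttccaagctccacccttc
In the Psmb5 window the element ends 38 bases before the RefSeq start, in that of Psmd9 22 bases before it, and in that of Psmb6 directly at it. The GC box GGGCGG was found in 17 of 29 members (58.6%, compared to 35.4% of all genes), and the ETS site CCGGAAG in 9 (31.0%, compared to 7.83%). CCAAT was found in 12 (41.4%, compared to 37.5%), TATAAA in 3 (10.3%, compared to 14.3%) and the E-box CACGTG in 2 (6.90%, compared to 6.86%). The cAMP response element TGACGTCA and the YY1 site AAGATGGC were in none of the 29 windows, where 1.77% and 1.83% of all genes held them. These are letter matches in a fixed window, and no binding was measured.

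In MDSC the same comparison of genotypes gave 0 of 35 members called in either direction by the edgeR quasi-likelihood test, where 4.28% of all 14806 genes tested were called, 3.76% as higher and 0.52% as lower. At an unadjusted p under 0.05 there were also 0, where 2859 of all 14806 genes passed. DESeq2 called 0 members, where 6.54% of all genes were higher and 1.95% lower. The median log2 fold change of the members was -0.07, compared to -0.01 over all genes, with 29 negative and 6 positive estimates. With 2 samples a genotype the median SE was 0.123 on the log2 scale, compared to 0.0459 in TAM, so that a fall of 0.26, the largest called in TAM, would not be far above the error in MDSC. The smallest adjusted p among members was 0.503. The samples of the genotypes did not overlap in 9 members, 8 of them lower in Shp2f/fLysMcre, where 49.1% of all genes did not overlap and 24.6% were lower without overlap.

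Psmb5 stood at 81.6 and 92.7 CPM in Shp2f/f MDSC and at 75.9 and 89.6 CPM in Shp2f/fLysMcre MDSC, with a log2 value of -0.07 (SE 0.136, edgeR quasi-likelihood adjusted p = 0.841). Psmb6 stood at 106.0 and 122.6 CPM compared to 99.2 and 117.8 CPM (log2 -0.07, SE 0.142, edgeR quasi-likelihood adjusted p = 0.848). Psmb7 stood at 108.6 and 126.1 CPM compared to 106.6 and 112.5 CPM (log2 -0.10, SE 0.124, edgeR quasi-likelihood adjusted p = 0.752). The samples of the genotypes overlapped for all 3 genes. Libraries of 1 genotype differed more than the genotypes did: 34 of 35 members were higher in Shp2f/f replicate 2 than in replicate 1, by a median of 0.16 on the log2 scale, where 50.2% of all genes were. Of the Shp2f/fLysMcre libraries, replicate 2 was above replicate 1 in 25 of 35 members, by a median of 0.10. Without Shp2f/f replicate 2 the members' median log2 fold change was 0.02, with 22 of 35 positive, and without Shp2f/f replicate 1 it was -0.15. Proliferation genes were higher in Shp2f/fLysMcre MDSC in 15 of 18 tested, the opposite of TAM, with a summed level of 1336 to 1392 CPM of the total count in Shp2f/f and 2632 to 2807 in Shp2f/fLysMcre. Col1a1, a fibroblast gene, was at 179 CPM in Shp2f/fLysMcre replicate 2 and at most at 14.9 CPM in the other MDSC libraries. Col1a2, Col3a1 and Sparc were at 127, 121 and 106 CPM in that library and at most at 5.15, 2.76 and 1.55 CPM in the others. Fn1 of the same list went the other way, at 902 CPM there and 1435 to 1696 CPM in the others. Without Shp2f/fLysMcre replicate 2 the members' median was -0.13. Neutrophil markers also differed, with a summed level of 10883 to 11203 CPM in Shp2f/f and 29941 to 34226 in Shp2f/fLysMcre. Their part in the members' values was not tested.

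An interaction term, fitted to the 10 samples together, tested whether the genotype difference in TAM differed from that in MDSC. No member was called (0 of 35), where 24.9% of all 16581 genes tested were. At an unadjusted p under 0.05 there were 4, where 6220 of all 16581 genes passed. Of the 4, Psmd9 (log2 difference -0.38), Psmd7 (-0.23) and Psmd5 (-0.21) were lower in TAM relative to MDSC and Psmc1 (0.23) was higher. Psmd5 had the smallest adjusted p (edgeR quasi-likelihood adjusted p = 0.0972). DESeq2 called 2 members, Psmd8 and Psmc1, both higher, where 15.0% of all genes were higher and 13.4% lower. Total-count scaling called 8, all lower, where 18.9% of all genes were lower and 7.44% higher. Without MDSC Shp2f/fLysMcre replicate 1 there were 3, all lower (Psmd7, Psmd9 and Psmd10), where 19.6% of all genes were lower. Psmb5 had an interaction of -0.16 (SE 0.138, edgeR quasi-likelihood adjusted p = 0.454), Psmb7 of -0.13 (SE 0.120, edgeR quasi-likelihood adjusted p = 0.495) and Psmb6 of 0.08 (SE 0.128, edgeR quasi-likelihood adjusted p = 0.703). By the edgeR quasi-likelihood test with TMM scaling, the falls in TAM were not shown to differ from the MDSC values.

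**Figure D4:**
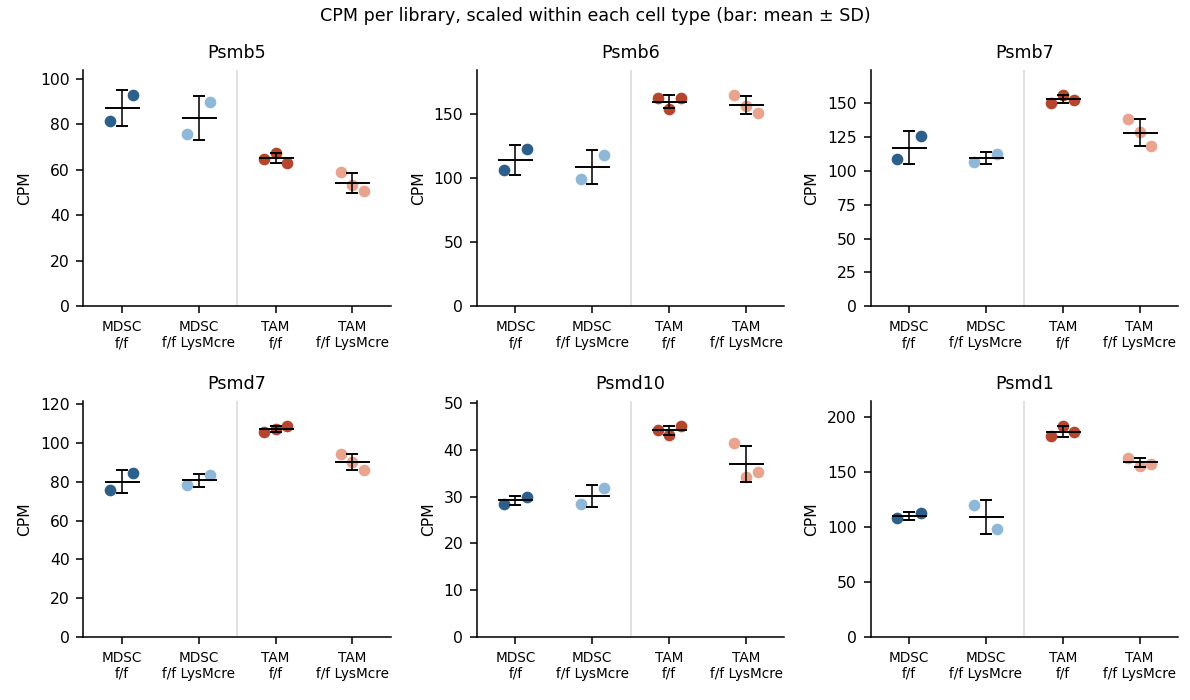
CPM of selected proteasome genes in every library by group, scaled within each cell type, each panel starting at 0, with a horizontal bar at the group mean and error bars of 1 SD. Psmb5 and Psmb7 of Shp2f/fLysMcre TAM lie below those of Shp2f/f TAM, and those of Psmb6 overlap.

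The balance between the catalytic genes was followed as a ratio of RPKM within each library, which does not depend on the scaling of libraries. These ratios were chosen after the values were seen. The ratio of Psmb6 to Psmb5 lay between 0.624 and 0.635 in all 4 MDSC libraries of both genotypes. In TAM it was 1.20, 1.10 and 1.24 in Shp2f/f and 1.34, 1.41 and 1.43 in Shp2f/fLysMcre, without overlap between cell types or between the TAM genotypes. The exact two-sided permutation test on log2 ratios gave p = 0.1 for the TAM genotypes, which is the smallest that 3 samples against 3 allow. Between cell types the exact permutation test gave p = 0.2 in each genotype, the smallest that 3 samples against 2 allow, with log2 differences of 0.91 in Shp2f/f and 1.15 in Shp2f/fLysMcre. The ratio of Psmb7 to Psmb5 lay between 0.330 and 0.369 in MDSC and between 0.608 and 0.638 in TAM. It did not separate the genotypes in TAM, with overlapping values and a log2 difference of 0.01 (exact permutation p = 0.6).

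Each constitutive catalytic gene was also set against the immunoproteasome gene that takes its place. The ratio of Psmb5 to Psmb8 was between 1.22 and 1.26 in Shp2f/f TAM and between 1.02 and 1.10 in Shp2f/fLysMcre TAM, a log2 difference of -0.24. The ratio of Psmb7 to Psmb10 was between 0.790 and 0.835 in Shp2f/f TAM and between 0.628 and 0.674 in Shp2f/fLysMcre TAM, a log2 difference of -0.30. Both reached the smallest exact permutation p, 0.1. The ratio of Psmb6 to Psmb9 overlapped between the TAM genotypes, at 4.35 to 4.84 and 4.18 to 4.37 (exact permutation p = 0.2). Over the 24 ratio tests the smallest Benjamini-Hochberg adjusted value of the exact permutation p was 0.282. Psmb8, Psmb9 and Psmb10 themselves had log2 fold changes of -0.02, 0.10 and 0.04 between the TAM genotypes, and none of the 3 was called. In MDSC, Psmb7 to Psmb10 lay between 0.378 and 0.454 and Psmb6 to Psmb9 between 1.80 and 2.24, both below every TAM library, while Psmb5 to Psmb8 lay between 1.29 and 1.41, above every TAM library.

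The comparison of TAM with MDSC asks how the particle's genes differ between the cell types in the same genotype, where cell type, organ and isolation method change together and cannot be told apart. In Shp2f/f, 15 of 35 members were higher in TAM and 10 were lower by the edgeR quasi-likelihood test, where 40.0% of all 15659 genes tested were higher and 38.8% lower. At 71.4% called, compared to 78.8% of all genes, the members' count was near that of all genes. The groups did not overlap in 27 members, 11 of them lower in TAM, where 86.0% of all genes did not overlap and 42.4% were lower without overlap. The differences of members were smaller, with a median size of 0.30 on the log2 scale compared to 0.73 over all genes. The direction depended on the gene. The 19S particle had 11 higher and 4 lower of 20 tested (median log2 0.22), and the 20S core 4 higher and 6 lower of 15 (median log2 0.01).

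**Figure D5:**
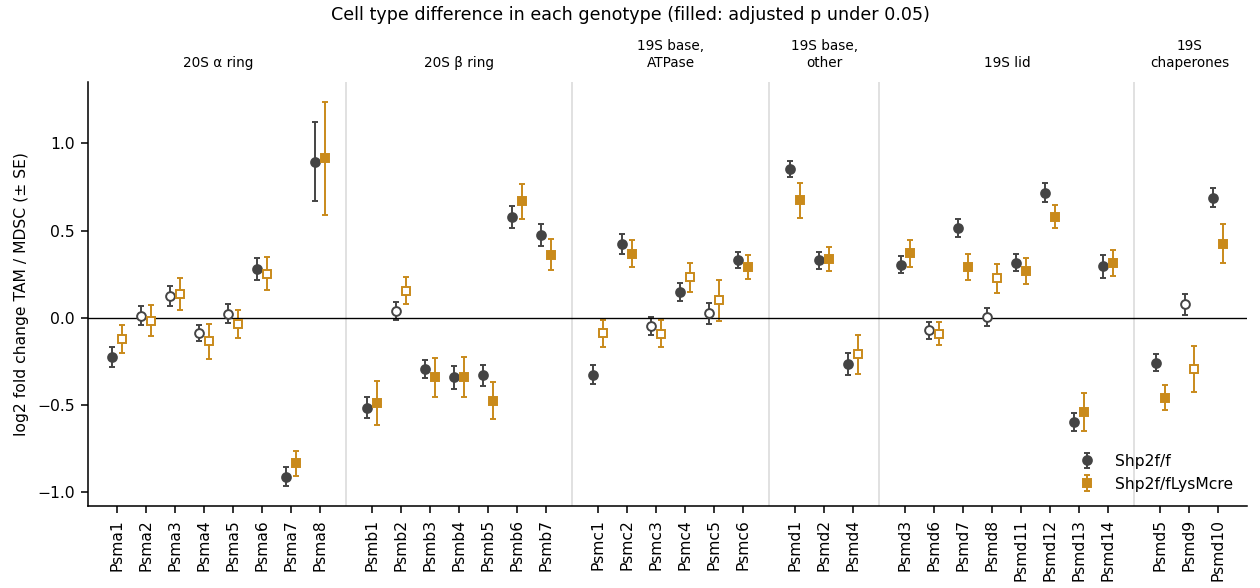
Log2 fold change of TAM over MDSC with its SE for each of 35 tested genes, in Shp2f/f (circles) and Shp2f/fLysMcre (squares). Filled symbols passed an adjusted p of 0.05. Psmd1, Psmd12 and Psmb6 lie above 0 and Psma7, Psmd13 and Psmb1 below 0 in both genotypes.

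The largest rises in TAM were in Psma8, Psmd1, Psmd12 and Psmd10. Psmd1, a scaffold of the base, on chromosome 1 (86064387 to 86139151, plus strand), stood at 185, 197 and 188 CPM in the Shp2f/f TAM and at 103 and 108 CPM in the Shp2f/f MDSC. This was a log2 difference of 0.85 (SE 0.0476, edgeR quasi-likelihood adjusted p = 1.49e-07), and the groups lay far apart. Psmd12, a lid subunit on chromosome 11 (107479484 to 107504362, plus strand), stood at 111, 115 and 109.9 CPM in TAM and at 64.2 and 71.4 CPM in MDSC, a log2 difference of 0.72 (SE 0.0535, edgeR quasi-likelihood adjusted p = 1.23e-06). Psmd10 had means of 45.0 ± 0.692 CPM (SD, n = 3) and 27.8 ± 0.964 CPM (n = 2), a log2 difference of 0.69 (SE 0.0537, edgeR quasi-likelihood adjusted p = 1.72e-06). Psma8, expressed at 1.89 ± 0.102 CPM (n = 3) and 1.01 ± 0.209 CPM (n = 2), had the largest log2 difference, 0.89 (SE 0.227, edgeR quasi-likelihood adjusted p = 0.00508), at the lowest level of the tested members. Psmd1 overlaps Htr2b on the opposite strand, which had at most 238 reads in any library, where Psmd1 had at least 3534.

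The largest falls in TAM were in Psma7, Psmd13, Psmb1 and Psmb4. Psma7, an alpha ring subunit on chromosome 2 (180036374 to 180042433, minus strand), stood at 235 and 266 CPM in Shp2f/f MDSC and at 134, 133 and 133 CPM in Shp2f/f TAM. The log2 difference was -0.91 (SE 0.0556, edgeR quasi-likelihood adjusted p = 2.85e-07), while Psma6 of the same ring was called higher in TAM (log2 0.28). Psmd13, a lid subunit on chromosome 7 (140881968 to 140898643, plus strand), had means of 116.9 ± 1.87 CPM (n = 3) in TAM and 176.8 ± 14.0 CPM (n = 2) in MDSC, a log2 difference of -0.60 (SE 0.0527, edgeR quasi-likelihood adjusted p = 4.09e-06). Psmb1, on chromosome 17 (15475021 to 15499751, minus strand), and Psmb4, on chromosome 3 (94884093 to 94886961, minus strand), are beta ring subunits without a catalytic site. Psmb1 stood at 154, 162 and 151 CPM in TAM and at 207 and 237 CPM in MDSC (log2 -0.52, SE 0.0602, edgeR quasi-likelihood adjusted p = 3.17e-05). Psmb4 stood at 181, 188 and 187 CPM in TAM and at 215 and 254 CPM in MDSC (log2 -0.34, SE 0.0657, edgeR quasi-likelihood adjusted p = 0.000964). Every TAM sample lay below every MDSC sample for both genes.

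The catalytic genes moved apart between the cell types in Shp2f/f. Psmb6 was higher in TAM, at 165, 158 and 165 CPM compared to 101 and 117 CPM, a log2 difference of 0.58 (SE 0.0632). Psmb7 was higher at 155.6 ± 4.01 CPM (n = 3) compared to 111.7 ± 11.8 CPM (n = 2), a log2 difference of 0.48 (SE 0.0625). Psmb5 was lower at 66.1 ± 2.68 CPM (n = 3) compared to 83.0 ± 7.54 CPM (n = 2), a log2 difference of -0.33 (SE 0.0607). Their adjusted p-values by the edgeR quasi-likelihood test were 2.02e-05, 7.54e-05 and 0.000735.

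In Shp2f/fLysMcre, which shares no sample with that comparison, 13 of 35 members were higher in TAM and 7 were lower, where 29.8% of all 15741 genes tested were higher and 33.7% lower. In all 57.1% of the members were called, compared to 63.5% of all genes. The groups did not overlap in 26 members, 8 of them lower in TAM, where 77.7% of all genes did not overlap and 40.7% were lower without overlap. With scaling by the total count the split was 3 higher and 14 lower, where 23.5% of all genes were higher and 41.7% lower and the median of all genes moved to -0.26. With the replicate number as a block, 3 members were higher and 1 lower, where 20.7% of all genes were higher and 22.5% lower. In Shp2f/f the block left 15 members higher and 10 lower, where 39.7% of all genes were higher and 38.8% lower. MDSC and TAM came from the same mice, but whether equal numbers mark the same mouse is not stated. All 20 members called in Shp2f/fLysMcre were also called in Shp2f/f in the same direction, which is 80.0% of the Shp2f/f calls and the whole of the Shp2f/fLysMcre calls. Over all genes tested in both, the calls shared in the same direction were 69.0% and 85.3%. Psmb6 was again higher in TAM (log2 0.67, SE 0.102, edgeR quasi-likelihood adjusted p = 0.00221) and Psmb5 lower (log2 -0.48, SE 0.107, edgeR quasi-likelihood adjusted p = 0.0101), and Psmb7 was higher (log2 0.36, SE 0.0881, edgeR quasi-likelihood adjusted p = 0.0137). Psma7 was lower at 124, 126 and 120.3 CPM compared to 211 and 231 CPM (log2 -0.84, SE 0.0717, edgeR quasi-likelihood adjusted p = 0.000229). Psmd1 and Psmd12 were higher, with log2 differences of 0.67 (SE 0.0992) and 0.58 (SE 0.0660), and Psma8 had a log2 difference of 0.92 (SE 0.325). Their adjusted p-values by the edgeR quasi-likelihood test were 0.00194, 0.000702 and 0.0496. Psmd13 and Psmb1 were lower, with log2 differences of -0.54 (SE 0.108) and -0.49 (SE 0.125) and edgeR quasi-likelihood adjusted p-values of 0.00636 and 0.0164. Without TAM Shp2f/fLysMcre replicate 2 the calls fell to 7 higher and 3 lower, where 24.1% of all genes were higher and 26.3% lower. Psma7, Psmb6, Psmd1 and Psmd12 were called in every alternative that was run.

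Other genes of the pathway were counted from lists. Beside the counts in TAM stand 23.9% of all genes higher and 26.3% lower. The 5 assembly factors of the 20S core showed the same direction as the members in TAM, with 4 of 5 lower in Shp2f/fLysMcre. Psmg2 and Psmg1, which form a chaperone of the alpha ring, had log2 fold changes of -0.53 and -0.47, Psmg3 of -0.31 and the beta ring maturation factor Pomp of -0.11. Psmg4 had a log2 fold change of -0.02 and was not called. In MDSC 0 of 5 were called, and the interaction was called for Psmg2 alone (log2 difference -0.69, edgeR quasi-likelihood adjusted p = 0.0293). Between cell types Pomp was lower in TAM in both genotypes, by 0.81 and 0.72 on the log2 scale.

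Of the 5 activator and inhibitor genes, the nuclear activator Psme3 fell in Shp2f/fLysMcre TAM (log2 -0.26) and the activator Psme4 rose (log2 0.12), while Psme1, Psme2 and the inhibitor Psmf1 had log2 fold changes of 0.07, -0.10 and -0.08. Of 6 further regulatory-particle genes 3 were lower and 0 higher in that comparison. The list of ubiquitin genes had 7 of 10 lower and 1 higher. Of 9 genes of the NRF1 pathway, 3 were higher and 1 lower. Nfe2l2, the relative of NRF1 that binds the same element, was higher in Shp2f/fLysMcre TAM (log2 0.54, SE 0.0393, edgeR quasi-likelihood adjusted p = 8.74e-07), and NRF1 itself had a log2 fold change of 0.04 and was not called. In MDSC no gene of the immunoproteasome, activator, assembly, regulatory-particle, NRF1 or ubiquitin lists was called by the edgeR quasi-likelihood test.

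Between the cell types in Shp2f/f, all 3 immunoproteasome genes were lower in TAM, with log2 differences of -0.23 for Psmb8, -0.53 for Psmb9 and -0.54 for Psmb10. In Shp2f/fLysMcre only Psmb9 was called (log2 -0.55). Nfe2l1 was higher in TAM by 1.10 on the log2 scale in Shp2f/f and by 1.30 in Shp2f/fLysMcre, and the protease Ddi2, which activates NRF1, was lower with log2 differences of -2.15 and -1.40. The proteasome-bound deubiquitinase Usp14 was higher in TAM with log2 differences of 1.25 and 0.97, and the lid component Sem1 was lower with -1.06 and -0.94. Of 10 ubiquitin genes 9 were higher and 1 lower in Shp2f/f TAM, and 7 were higher and 1 lower in Shp2f/fLysMcre TAM. Of all genes 40.0% were higher and 38.8% lower in Shp2f/f TAM, and 29.8% higher and 33.7% lower in Shp2f/fLysMcre TAM.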

How the data were processed

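RNA was isolated by the authors with an RNeasy kit, poly(A) libraries were made with a stranded TruSeq kit, and paired 42-nt reads were sequenced. Per the labels and the study's methods, reads were trimmed with Cutadapt 2.5, aligned to GRCm38 with STAR 2.7.3a and counted per Ensembl gene with featureCounts (Subread 1.6.2). The strand setting and the treatment of multi-mapping reads are not given in the sources used here. The deposited raw counts were used. A deposited table of counts divided by DESeq2 size factors was not used.

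From the counts, edgeR 4.0.16 in R 4.3.3 was run with TMM scaling, filterByExpr (minimum count 10) and the quasi-likelihood test, on the groups of each comparison and on all 10 samples for the interaction. P-values were adjusted by Benjamini-Hochberg over all genes tested and called under 0.05. The SE is the log2 fold change divided by the square root of F. CPM for genotypes were scaled within a cell type, and CPM between cell types and RPKM over all 10 samples. The marker and list sums are CPM of the total count. Of the identifiers, 99.67% matched GENCODE, whose exon unions gave lengths. Promoters were RefSeq windows, searched on both strands for 8 motifs. Ratios were tested with exact two-sided permutation tests (scipy 1.17.1). The fits were tested on simulated data.

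The members and gene lists were chosen with earlier results of these data known. Full statistics were given for Psmb5, Psmb6 and Psmb7 and for the called members with the 4 largest rises and falls, and other members were named with their level or fold change. Genes of other lists were named where called with a log2 fold change of 0.5 or more in size, or in lists of 5 genes or fewer. Nfe2l1 in TAM fell outside this and was named after its values were seen. Alternatives were DESeq2 1.42.0 (test and size factors), total-count scaling, removal of the 20 most abundant genes, other filters, a replicate block, limma 3.58.1 voom with group weights, a fit of all samples and leaving out each library. Depth limits precision through counting error, and intervals across 2 or 3 samples are wide.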

Additional observations from a re-analysis of the deposited data

How the results depend on the processing

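Of the counts of called members, 36 were within 1.5 times the reported count under alternatives of scaling, filter, test or model, and 8 were not. This tally adds higher and lower calls together, and it includes the 0 calls for the genotype in MDSC. The cell type split in Shp2f/fLysMcre, 13 higher and 7 lower, became 3 higher and 14 lower with total-count scaling and is still among the 36. In TAM the 16 lower members became 31 with total-count scaling and 2 in the fit of all 10 samples, where 36.2% and 13.4% of all genes were lower. In Shp2f/fLysMcre the 20 members that differed between cell types became 13 with voom weights. For the interaction, the 0 calls became 2 with DESeq2, both higher, where 15.0% of all genes were higher. They became 8 with total-count scaling (all lower, where the median of all genes moved to -0.18) and 1 with a filter at a mean of 1 CPM. Leaving out 1 library gave 11 to 28 calls for the genotype in TAM, 10 to 23 for the cell types in Shp2f/fLysMcre and 0 to 3 for the interaction. The 3 interaction calls came without MDSC Shp2f/fLysMcre replicate 1 (Psmd7, Psmd9 and Psmd10), and 1 each without MDSC Shp2f/fLysMcre replicate 2 (Psmd1) and TAM Shp2f/fLysMcre replicate 1 (Psmd10). The cause of these shifts was not tested. For the genotype in MDSC, 0 members were called under every alternative of scaling, filter, test or model, with 2 samples a genotype and a median SE of 0.123. Few genes were called in some of these: with no low-count filter 0.45% of all genes were higher and 0.03% lower. With the replicate block the shares were 12.6% and 5.43%. Fits without 1 MDSC library left 1 sample in a group, so they cannot show whether the 0 calls are stable.

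Psmb6 changed sign in TAM in the fit of all samples (0.0125) and in the interaction with total-count scaling (-0.10). Over the fits without 1 library, the log2 fold change in MDSC ran from -0.201 to 0.0206 for Psmb5, from -0.205 to 0.0328 for Psmb6 and from -0.207 to 0.0122 for Psmb7. For Psmb6 it ran from -0.0558 to 0.00938 in TAM and from -0.0417 to 0.22 for the interaction. None of these values was called.

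A replicate block was fitted because groups share replicate numbers. Same-numbered TAM samples of the genotypes had correlated deviations of -0.08, 0.06 and 0.03, and same-numbered MDSC samples of 0.17. With 2 MDSC samples a genotype, the 2 pairs must give the same value, so they count as 1 observation. MDSC and TAM were taken from the same mice, but the labels do not say that equal numbers mark a mouse. Same-numbered MDSC and TAM samples had values of 0.02 and 0.03 in Shp2f/f and of 0.03 and -0.15 in Shp2f/fLysMcre, so a pairing by number was not shown, and whether the calls lost with the block reflect shared mice was not tested. With the block, 14 members were lower in TAM, where 25.2% of all genes were lower. In the interaction 1 was called (Psmd9, lower), where 16.2% of all genes were lower. Between cell types in Shp2f/fLysMcre 4 were called (3 higher, 1 lower), where 20.7% of all genes were higher and 22.5% lower.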
